A study of Homo sapiens with 9 samples.

Results

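The expression of 50 genes of central carbon metabolism was described in PC-3 cells, an established line of metastatic prostate cancer, after treatment with decitabine or with decitabine and S-adenosylmethionine (SAM). The genes were chosen by name as the enzymes of glycolysis, the pentose phosphate pathway and the tricarboxylic acid (TCA) cycle with close partners, and SLC2A1, a glucose transporter, was listed with them. They are 50 of the 60617 gene identifiers in the files, and all 50 were among the 18532 genes with enough counts to be tested. The bulk RNA-seq libraries fell into 3 groups of 3: vehicle-treated control cells, cells treated with 1 µM decitabine, and cells that received the same decitabine dose together with 200 µM SAM, called the combination treatment. Treatment lasted 5 days in every group, and the labels name no genetic change in any group. Decitabine is a cytosine analog that traps DNA methyltransferases, and SAM is the methyl donor of these enzymes. The labels do not say that the 3 libraries of a group came from separate cultures, so the p-values measure only the spread between these libraries. PC-3 is a single line, which limits it as a model of prostate tumors.

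Glycolysis splits glucose into pyruvate and yields ATP and NADH, and lactate dehydrogenase turns pyruvate into lactate so that NADH is recycled. The pentose phosphate pathway branches off at glucose 6-phosphate and gives NADPH and ribose for nucleotides, and its non-oxidative steps run back into glycolysis. Pyruvate dehydrogenase feeds acetyl-CoA into the TCA cycle, where dehydrogenases reduce NAD for the respiratory chain. Many tumor cells keep glycolysis and lactate output high in the presence of oxygen, and several of these genes are known targets of hypoxia-inducible factors.

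The start regions of 5 genes are shown, picked by the changes in counts described below. GPI had the lowest change after decitabine of the 50 genes, SLC2A1 rose with both treatments, and ACO1 differed most between the treatments. TKT and TKTL1 are related transketolase genes whose counts moved in opposite directions. Each window is taken from RefSeq on GRCh38.p14 and is the first listed for its gene, which may have other starts. It runs, on the gene's own strand, from 250 bases before to 50 bases after the annotated start. Capitals mark CG dinucleotides, the sites of DNA methylation. The window of GPI lies at chr19:34364742-34365041 on the plus strand and holds 13 CG dinucleotides. That of SLC2A1 lies at chr1:42958819-42959118 on the minus strand with 30, and that of ACO1 at chr9:32384393-32384692 on the plus strand with 36. TKT, at chr3:53255973-53256272 on the minus strand, has 31, and TKTL1, at chrX:154295545-154295844 on the plus strand, has 18.
GPI: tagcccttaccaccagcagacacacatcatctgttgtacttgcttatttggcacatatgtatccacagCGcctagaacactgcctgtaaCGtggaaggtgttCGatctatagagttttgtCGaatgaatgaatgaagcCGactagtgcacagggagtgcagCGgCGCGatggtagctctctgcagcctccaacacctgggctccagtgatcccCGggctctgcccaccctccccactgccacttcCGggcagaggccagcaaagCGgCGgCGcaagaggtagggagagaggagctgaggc
SLC2A1: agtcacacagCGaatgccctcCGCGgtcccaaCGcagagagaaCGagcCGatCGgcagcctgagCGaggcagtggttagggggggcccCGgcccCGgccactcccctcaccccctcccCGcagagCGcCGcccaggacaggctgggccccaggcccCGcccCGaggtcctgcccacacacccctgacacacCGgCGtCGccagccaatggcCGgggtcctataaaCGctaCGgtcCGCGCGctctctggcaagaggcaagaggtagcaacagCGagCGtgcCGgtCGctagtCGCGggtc
ACO1: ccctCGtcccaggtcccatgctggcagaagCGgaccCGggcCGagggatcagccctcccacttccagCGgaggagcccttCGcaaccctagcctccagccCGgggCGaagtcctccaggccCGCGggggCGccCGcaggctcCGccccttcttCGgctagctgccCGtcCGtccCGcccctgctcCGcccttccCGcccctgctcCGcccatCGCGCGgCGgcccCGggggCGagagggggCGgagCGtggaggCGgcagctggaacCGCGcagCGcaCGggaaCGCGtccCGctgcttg
TKT: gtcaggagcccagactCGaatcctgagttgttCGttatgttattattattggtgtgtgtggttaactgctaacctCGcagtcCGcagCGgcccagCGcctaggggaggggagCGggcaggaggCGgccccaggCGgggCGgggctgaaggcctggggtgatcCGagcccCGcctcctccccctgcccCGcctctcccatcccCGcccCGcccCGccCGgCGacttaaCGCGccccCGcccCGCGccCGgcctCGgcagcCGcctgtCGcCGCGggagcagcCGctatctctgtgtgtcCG
TKTL1: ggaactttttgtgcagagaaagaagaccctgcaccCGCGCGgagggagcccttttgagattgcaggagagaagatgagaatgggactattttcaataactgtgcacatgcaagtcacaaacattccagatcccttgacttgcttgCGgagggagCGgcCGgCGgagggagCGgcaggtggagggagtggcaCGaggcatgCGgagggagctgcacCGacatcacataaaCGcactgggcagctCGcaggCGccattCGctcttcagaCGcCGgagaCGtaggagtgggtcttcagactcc

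A window was found for 49 of the 50 genes (not for OGDH). The 49 windows held between 1 and 44 CG dinucleotides with a median of 28, and all 27305 RefSeq windows held a median of 14. The letters ACGTG, the core of a hypoxia response element, stood on either strand in 14 of the 49 windows (28.6%) and in 21.6% of all windows. The variant core GCGTG, which shares the letters CGTG with the first and was counted apart from it, stood in 27 of 49 (55.1%) and in 36.3% of all windows. TGATGCAA, an element bound by C/EBP and ATF factors, stood in 1 of 49 (2.04%) and in 0.923% of all windows. In the windows shown above, ACGTG occurs once in that of GPI, and GCGTG once each in those of SLC2A1 and ACO1. ACGTG and GCGTG each contain a CG dinucleotide, in which the 49 windows were richer. The comparison with all windows was not matched for CG number, so no enrichment is read from the shares. These matches describe letters in 1 window per gene and not sites of binding.

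Library totals lay between 21934307 and 22489684 estimated counts. In the control libraries the epithelial genes KRT18 (396 to 445 CPM, the gene's counts relative to the scaled library total), KRT8 (107 to 127 CPM) and EPCAM (15.8 to 18.2 CPM) were present, while CDH1 was at 1.78 to 2.0 CPM. KLK3, KLK2 and TMPRSS2, markers of luminal prostate cells, lay at or below 0.0494 CPM. The leukocyte markers PTPRC and CD3E lay at or below 0.1 CPM, CDH5 and DCN at or below 0.200 CPM, COL1A1 between 2.48 and 3.80 CPM and PECAM1 between 9.78 and 10.3 CPM. All CPM values here are scaled by the trimmed mean of M-values (TMM), whose factors were 0.895 to 0.902 in the controls and 1.03 to 1.08 in the treated libraries. In bulk samples, fewer cells of a type and less of a transcript per cell cannot be told apart.

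Most of the 50 genes were lower after either treatment. With decitabine, 39 of the 50 fell, 1 rose (SLC2A1) and 10 did not pass the test (edgeR quasi-likelihood test, adjusted p under 0.05 over all genes tested). Of all 18532 genes tested, 68.8% were called, 32.5% lower and 36.3% higher. With the combination treatment, 38 of the 50 fell, 2 rose (SLC2A1 and ALDOC) and 10 did not pass, against 67.2% called, 31.3% lower and 35.9% higher, among all genes. The median log2 fold change of the 50 genes was -0.72 with each treatment, and that of all genes was 0.03 after decitabine and 0.05 after the combination treatment.

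These are abundant transcripts, and the background moved with abundance. Among the 10482 genes averaging at least 10 CPM, 47.3% were called lower after decitabine and 44.3% after the combination treatment. Among the 1843 genes at or above the median level of the 50, the shares were 57.0% and 52.1%. They were 78.0% and 76.0% over all of the 50, including those below that level. A fall of at least 1 on the log2 scale was called for 13 of the 50 after decitabine and for 11 after the combination treatment, while 6.15% and 6.56% of all genes tested fell as far. Scaling by library size alone moved the median of all genes from 0.03 to 0.28 after decitabine and from 0.05 to 0.27 after the combination treatment. The counts among the 50 then became 36 lower and 4 higher after decitabine, and 36 lower and 7 higher after the combination treatment, so that 83.7% of the called genes were lower in the latter comparison in place of 95%. The added rises were genes that did not pass with TMM scaling, ACO1 after the combination treatment among them. A gene described below as not passing may therefore be called higher with library-size scaling.

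**Figure D1:**
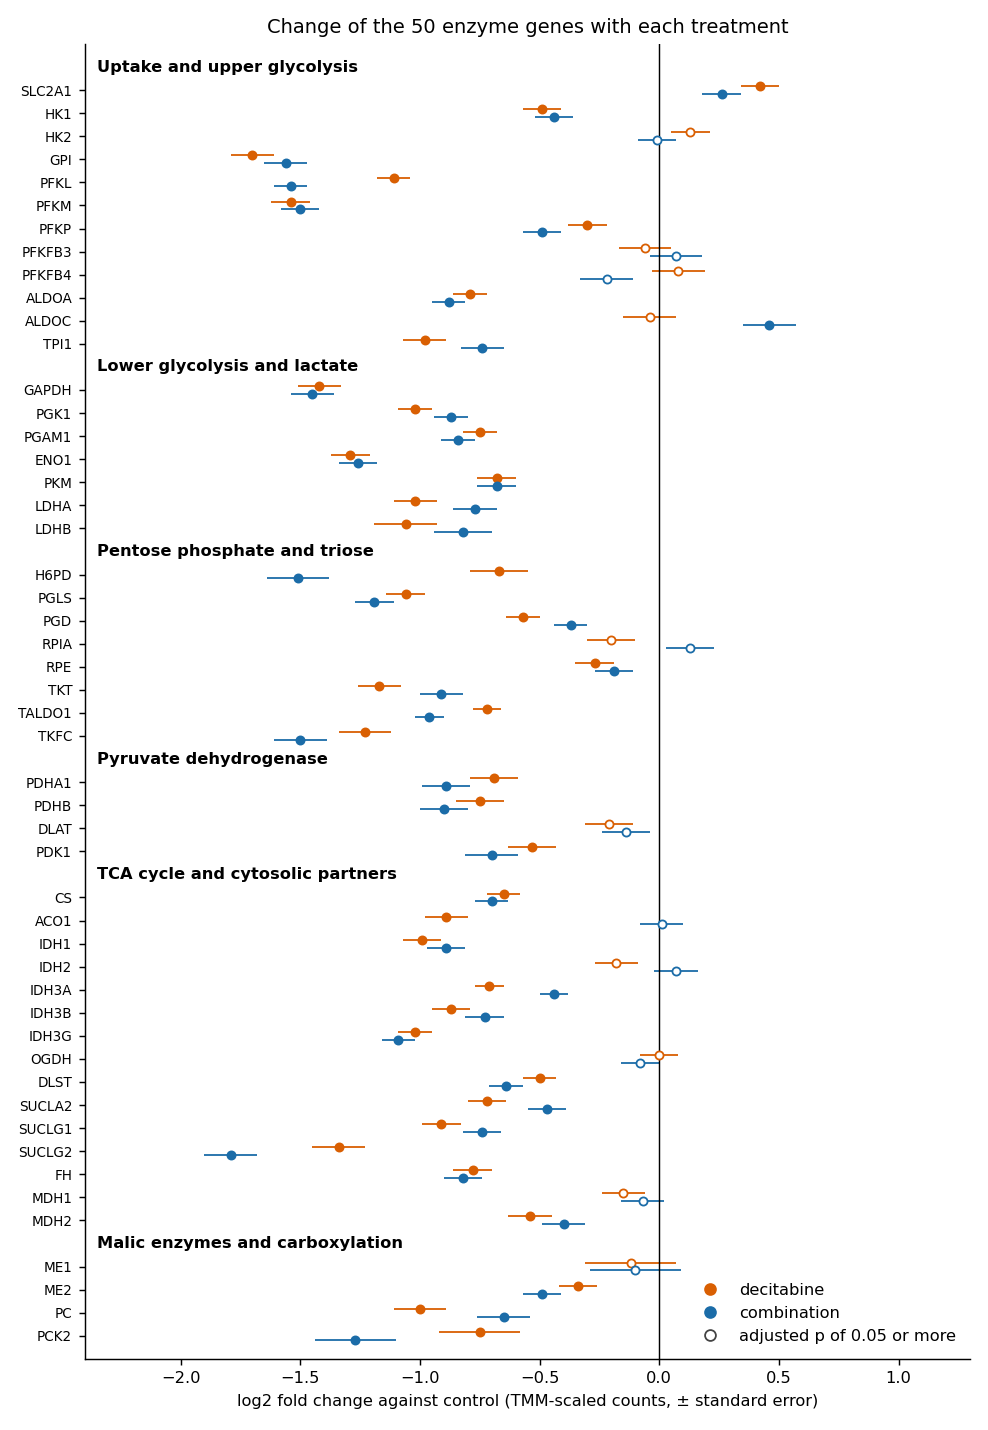
Log2 fold change against control (x axis) of each of the 50 genes (y axis, by pathway branch) after decitabine (orange) and after the combination treatment (blue). Points are edgeR estimates from 3 libraries a group, bars are 1 standard error and open points did not pass the test. Nearly all points lie left of 0, from -1.79 for SUCLG2 after the combination treatment, and SLC2A1 lies right of 0 with both treatments.

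Glucose uptake and upper glycolysis was the branch with the widest spread of changes. Of its 12 genes, 7 fell with each treatment, while 1 rose after decitabine and 2 rose after the combination treatment. SLC2A1, the transporter that brings glucose into most cells, was at 69.9, 60.1 and 58.9 CPM in the controls, at 84.8, 88.2 and 79.3 CPM after decitabine and at 71.0, 75.3 and 79.2 CPM after the combination treatment. Each treated library lay above each control, though the lowest combination library exceeded the highest control by little. The log2 fold changes were 0.42 ± 0.08 (SE) after decitabine (edgeR adjusted p = 0.00035) and 0.26 ± 0.08 after the combination treatment (adjusted p = 0.012). The latter call was lost without control replicate 2 (0.21, adjusted p = 0.066) or without control replicate 3 (0.20, adjusted p = 0.068).

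The hexokinases trap glucose in the cell as glucose 6-phosphate. HK1 fell from 636, 693 and 750 CPM to 523, 509 and 453 CPM after decitabine and to 500, 531 and 502 CPM after the combination treatment, which gave log2 fold changes of -0.49 and -0.44 (adjusted p = 9.5e-05 and 0.00024). HK2, the inducible form of many tumors, did not pass the test with either treatment (0.13 and -0.01), and its libraries overlapped between all groups. GPI, which converts glucose 6-phosphate to fructose 6-phosphate, stood at 508, 553 and 558 CPM in the controls, at 175, 174 and 148 CPM after decitabine and at 197, 193 and 161 CPM after the combination treatment. Its treated libraries all lay far below the controls, at 0.307 and 0.340 of the control level in the fit (log2 -1.70 ± 0.09 and -1.56 ± 0.09, adjusted p = 2e-09 and 4.9e-09).

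Phosphofructokinase commits the sugar to glycolysis, and its liver, muscle and platelet forms all fell with each treatment. PFKL, the liver form, went from 164, 166 and 154 CPM to 79.2, 76.7 and 68.5 CPM after decitabine and to 55.1, 54.8 and 57.0 CPM after the combination treatment (log2 -1.11 and -1.54, adjusted p = 9.4e-09 and 4.7e-10). The 3 groups of PFKL values did not overlap each other. PFKM, the muscle form, went from 265, 273 and 276 CPM to 98.9, 99.8 and 82.1 CPM and to 99.3, 98.5 and 90.6 CPM, a fall of similar size with each treatment (log2 -1.54 and -1.5, adjusted p = 1.4e-09 and 1.9e-09). PFKP, the platelet form, fell least (log2 -0.30 and -0.49, adjusted p = 0.003 and 7e-05), and with library-size scaling its fall after decitabine was -0.06 and did not pass (adjusted p = 0.5).

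PFKFB3 and PFKFB4, which make the fructose 2,6-bisphosphate that activates phosphofructokinase, did not pass with either treatment, with log2 fold changes between -0.22 and 0.08. The main aldolase ALDOA fell (log2 -0.79 and -0.88), as did the triose phosphate isomerase TPI1 (-0.98 and -0.74). ALDOC, the brain form of aldolase and far less abundant in these libraries, was at 13.2, 11.7 and 10.1 CPM in the controls, at 11.1, 10.8 and 12.1 CPM after decitabine and at 15.9, 16.1 and 15.8 CPM after the combination treatment. The decitabine libraries of ALDOC lay within the range of the controls, and all 3 combination libraries lay above both (log2 0.46 ± 0.11 against control, adjusted p = 0.0021).

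Transcript counts were measured here, not enzyme activity or lactate. The genes of lower glycolysis and lactate fell throughout: all 7 were called lower with each treatment. For each of the 7, every treated library lay below every control, as was so for 34.8% and 33.6% of all genes tested. Falls of at least 1 on the log2 scale were called for 5 of them after decitabine and for 2 after the combination treatment. GAPDH, which makes the first NADH of the pathway, dropped from 3434, 3602 and 3539 CPM to 1414, 1347 and 1197 CPM after decitabine and to 1420, 1327 and 1123 CPM after the combination treatment (log2 -1.42 ± 0.09 and -1.45 ± 0.09, adjusted p = 1.4e-08 and 1.1e-08). The enolase ENO1, which forms phosphoenolpyruvate, dropped from 4020, 4020 and 3834 CPM to 1711, 1636 and 1521 CPM and to 1772, 1703 and 1498 CPM (log2 -1.29 and -1.26, adjusted p = 1e-08 and 1.2e-08). PGK1, the first ATP-forming step, went from 1839, 1731 and 1726 CPM to 862, 872 and 869 CPM and to 1030, 982 and 895 CPM (log2 -1.02 and -0.87). GAPDH is widely used as a reference transcript, and in these libraries it was at 0.374 and 0.366 of its control level.

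The lactate dehydrogenase subunits fell side by side. LDHA, the muscle-type subunit, was at 1735, 1656 and 1620 CPM in the controls, 891, 804 and 771 CPM after decitabine and 1085, 997 and 867 CPM after the combination treatment. Its log2 fold changes were -1.02 ± 0.09 and -0.77 ± 0.09 (adjusted p = 1.9e-07 and 3.4e-06). LDHB, the heart-type subunit, was at 778, 791 and 793 CPM, then 429, 382 and 319 CPM, and then 509, 466 and 360 CPM. The treated LDHB libraries spread more widely than the controls, and the log2 fold changes were -1.06 ± 0.13 and -0.82 ± 0.12 (adjusted p = 8.5e-06 and 7.9e-05). The remaining genes, the mutase PGAM1 (log2 -0.75 and -0.84) and the pyruvate kinase PKM (-0.68 with each treatment), fell by less than 1 on the log2 scale.

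Levels between genes can be compared only per length. Per kilobase of the canonical transcript, the control level was highest for GAPDH (2743 ± 66.1 CPM per kb, SD, n = 3) and ENO1 (2222 ± 60.2), followed by PKM (973 ± 14.1), LDHA (745 ± 26.2) and ALDOA (739 ± 20.6). LDHA and ALDOA did not differ beyond their spread. The lowest of the 50 were PDK1 (2.06 ± 0.236), PFKFB4 (4.09 ± 0.367) and H6PD (5.82 ± 0.167). PDK1 and H6PD have long canonical transcripts (14072 and 9147 bases), and the form expressed here was not determined. In CPM, the control means of ALDOC (11.6) and PFKFB4 (14.3) lay below that of PDK1 (29.0). Spearman's rho over the 50 genes between level per kilobase and log2 fold change was -0.42 after decitabine and -0.33 after the combination treatment. This is a description in which all points come from the same 9 libraries and share their depth. With the level in CPM, not per length, rho was -0.28 and -0.18 over the 50 genes, and -0.08 and -0.06 over the 10482 genes averaging at least 10 CPM.

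In the pentose phosphate branch, 7 of the 8 genes fell with each treatment and none rose. H6PD, which carries out the oxidative steps inside the endoplasmic reticulum, was at 52.8, 52.0 and 54.9 CPM in the controls, at 30.3, 35.1 and 35.1 CPM after decitabine and at 15.2, 17.7 and 23.3 CPM after the combination treatment. The 3 groups did not overlap, and the log2 fold changes were -0.67 ± 0.12 and -1.51 ± 0.13 (adjusted p = 0.00023 and 1.9e-07). PGLS, the lactonase that follows, fell from 121, 122 and 107 CPM to 53.9, 53.8 and 60.4 CPM and to 50.6, 51.2 and 51.6 CPM (log2 -1.06 and -1.19, adjusted p = 2.8e-08 and 9e-09). PGD, which gives the second NADPH, fell less (log2 -0.57 and -0.37).

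The non-oxidative steps move carbon between sugars of different length. TKT, the transketolase that links pentoses to glycolysis, fell from 480, 512 and 511 CPM to 238, 223 and 206 CPM after decitabine and to 297, 275 and 228 CPM after the combination treatment (log2 -1.17 ± 0.09 and -0.91 ± 0.09, adjusted p = 7.8e-08 and 9.7e-07). TALDO1, the transaldolase, fell from 213, 201 and 194 CPM to 124, 125 and 120 CPM and to 105, 102 and 106 CPM (log2 -0.72 and -0.96, adjusted p = 2.3e-07 and 1.5e-08). RPIA and RPE, which interconvert the pentose phosphates, moved least. RPIA did not pass with either treatment (log2 -0.20 and 0.13), and RPE had log2 fold changes of -0.27 (adjusted p = 0.0064) and -0.19 (adjusted p = 0.043). The RPE value for the combination treatment lost its call under 10 of 17 alternatives and was 0.03 with library-size scaling, under which the decitabine value was -0.02. Leaving out control replicate 1 or 3, decitabine replicate 2, or combination replicate 2 or 3 gave RPE values of -0.19 to -0.16 with adjusted p from 0.055 to 0.12. TKFC, a triokinase that phosphorylates dihydroxyacetone and glyceraldehyde, fell from 64.2, 54.4 and 46.8 CPM to 25.2, 23.2 and 22 CPM and to 21.6, 18.8 and 17.9 CPM (log2 -1.23 and -1.5, adjusted p = 2.9e-07 and 4.9e-08).

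Of the 4 genes around pyruvate dehydrogenase, 3 fell with each treatment. PDHB, the beta subunit of the first enzyme, had the lowest change of this branch, from 131, 119 and 118 CPM to 76.3, 76.9 and 65.6 CPM after decitabine and to 74.0, 67.9 and 56.3 CPM after the combination treatment (log2 -0.75 ± 0.10 and -0.90 ± 0.10, adjusted p = 8.7e-06 and 1.8e-06). The alpha subunit PDHA1 fell by nearly as much (log2 -0.69 and -0.89). PDK1, a kinase that switches the complex off, also fell (log2 -0.53 and -0.70), whereas the acetyltransferase DLAT did not pass (-0.21 and -0.14).

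The TCA cycle and its cytosolic partners fell in 12 of 15 genes after decitabine and in 11 of 15 after the combination treatment, and none rose. SUCLG2, the GTP-forming beta subunit of succinyl-CoA ligase, was at 42.6, 36.4 and 37.6 CPM in the controls, at 16.3, 14.6 and 15.1 CPM after decitabine and at 12.7, 11.5 and 9.58 CPM after the combination treatment. Its log2 fold changes of -1.34 ± 0.11 and -1.79 ± 0.11 (adjusted p = 7.3e-08 and 6.1e-09) were the lowest of the branch. SUCLA2, the ATP-forming beta subunit, fell less, from 83.0, 81.8 and 83.8 CPM to 52.5, 48.9 and 49.9 CPM and to 64.8, 62.3 and 52.8 CPM (log2 -0.72 and -0.47, adjusted p = 2.2e-06 and 0.00013). The shared alpha subunit SUCLG1 had log2 fold changes of -0.91 and -0.74.

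Isocitrate dehydrogenase exists in NAD-dependent and NADP-dependent forms. The NAD-dependent enzyme of the cycle has IDH3A as its catalytic subunit and IDH3B and IDH3G as partners, and all 3 fell with each treatment. IDH3G fell most, from 105, 112 and 110 CPM to 54.5, 55.3 and 51.8 CPM after decitabine and to 54.9, 52.1 and 46.6 CPM after the combination treatment (log2 -1.02 ± 0.07 and -1.09 ± 0.07, adjusted p = 3.3e-08 and 1.7e-08). IDH3A went from 101, 104 and 110 CPM to 64.2, 63.7 and 64.2 CPM and to 77.8, 78.2 and 76.1 CPM (log2 -0.71 and -0.44, adjusted p = 2e-07 and 2.3e-05), and IDH3B had log2 fold changes of -0.87 and -0.73. The cytosolic NADP enzyme IDH1 fell (log2 -0.99 and -0.89), and its mitochondrial counterpart IDH2 did not pass with either treatment (-0.18 and 0.07).

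ACO1, the cytosolic aconitase that also acts as an iron regulatory protein, was the gene of the 50 with the largest difference between the treatments. It was at 106, 111 and 116 CPM in the controls, at 57.4, 61.6 and 61.3 CPM after decitabine and at 119, 122 and 95 CPM after the combination treatment. The decitabine libraries lay far below the others, and the combination libraries spanned the control range. The log2 fold change was -0.89 ± 0.09 after decitabine (adjusted p = 8.4e-07) and 0.01 ± 0.09 after the combination treatment (adjusted p = 0.91), the latter between -0.05 and 0.23 over 17 alternatives. It passed as higher with library-size scaling (0.23, adjusted p = 0.025).

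Other genes of the cycle changed by less than 1 on the log2 scale. The citrate synthase CS (log2 -0.65 and -0.70), the succinyltransferase DLST (-0.50 and -0.64), the fumarase FH (-0.78 and -0.82) and the mitochondrial malate dehydrogenase MDH2 (-0.54 and -0.40) fell with each treatment. With library-size scaling the change of MDH2 after the combination treatment was -0.19 and did not pass (adjusted p = 0.067). OGDH, which shares its complex with DLST, was at 260, 279 and 289 CPM in the controls, 299, 273 and 256 CPM after decitabine and 270, 262 and 253 CPM after the combination treatment. Its libraries overlapped between all groups, with log2 fold changes of 0.00 ± 0.08 and -0.08 ± 0.08. The cytosolic malate dehydrogenase MDH1 did not pass either (-0.15 and -0.07).

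Of the 4 genes of malic enzymes and carboxylation, 3 fell with each treatment. PCK2, the mitochondrial enzyme that makes phosphoenolpyruvate from oxaloacetate, was at 74.2, 58.0 and 41.8 CPM in the controls, at 36.7, 35.6 and 31.3 CPM after decitabine and at 24.6, 23.5 and 24.2 CPM after the combination treatment. The controls of PCK2 varied widely, yet the groups did not overlap, and the log2 fold changes were -0.75 ± 0.17 and -1.27 ± 0.17 (adjusted p = 0.0024 and 7.7e-05). PC, the carboxylase that refills oxaloacetate, fell from 53.3, 46.6 and 40.7 CPM to 25.0, 24.8 and 20.5 CPM and to 32.8, 29.8 and 26.9 CPM (log2 -1.0 and -0.65, adjusted p = 2.5e-06 and 0.00013). The mitochondrial malic enzyme ME2 fell (log2 -0.34 and -0.49), although with library-size scaling its decitabine value was -0.10 and did not pass (adjusted p = 0.28). The cytosolic malic enzyme ME1 did not pass (-0.12 and -0.10), and its decitabine libraries ran from 36.5 to 62.8 CPM around controls of 51.2 to 55.4 CPM.

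Summed counts show how much of each library these genes occupied, as a share of its total count. The 50 genes together held 2.15%, 2.17% and 2.16% of all counts in the controls, 1.41%, 1.36% and 1.28% after decitabine and 1.44%, 1.39% and 1.28% after the combination treatment. The treated libraries held 0.625 and 0.635 of the control share. Most of the loss lay in lower glycolysis and lactate, which went from 1.31% ± 0.0119 (SD, n = 3) to 0.724% ± 0.0329 and 0.744% ± 0.0536. In relative terms that branch kept 0.551 and 0.567 of its share, upper glycolysis 0.701 and 0.689, the pentose phosphate branch 0.653 and 0.672, pyruvate dehydrogenase 0.798 and 0.730, the TCA cycle 0.807 and 0.833, and the malic and carboxylation genes 0.837 and 0.781. With TMM-scaled library sizes in place of the totals the losses were deeper. The 50 genes then kept 0.528 and 0.545 of the control value, lower glycolysis 0.465 and 0.487, the pentose phosphate branch 0.551 and 0.577, upper glycolysis 0.592 and 0.592, pyruvate dehydrogenase 0.674 and 0.627, the TCA cycle 0.681 and 0.716, and the malic and carboxylation genes 0.707 and 0.671. The loss of the TCA cycle after decitabine was -0.0544 percentage points of the total counts and -0.1 on the TMM scale.

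Treated and control shares did not overlap in 6 of 6 branches after the combination treatment and in 5 of 6 after decitabine, the exception being the malic and carboxylation genes (exact p = 0.2, and 0.1 with TMM-scaled sizes). Exact two-sided permutation tests gave p = 0.1 where the groups did not overlap (adjusted p = 0.162 over 21 tests), the smallest value that 3 libraries against 3 can give. Between the treatments the share of the 50 genes differed by 0.0203 percentage points (95% interval -0.146 to 0.186, exact p = 0.8).

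**Figure D2:**
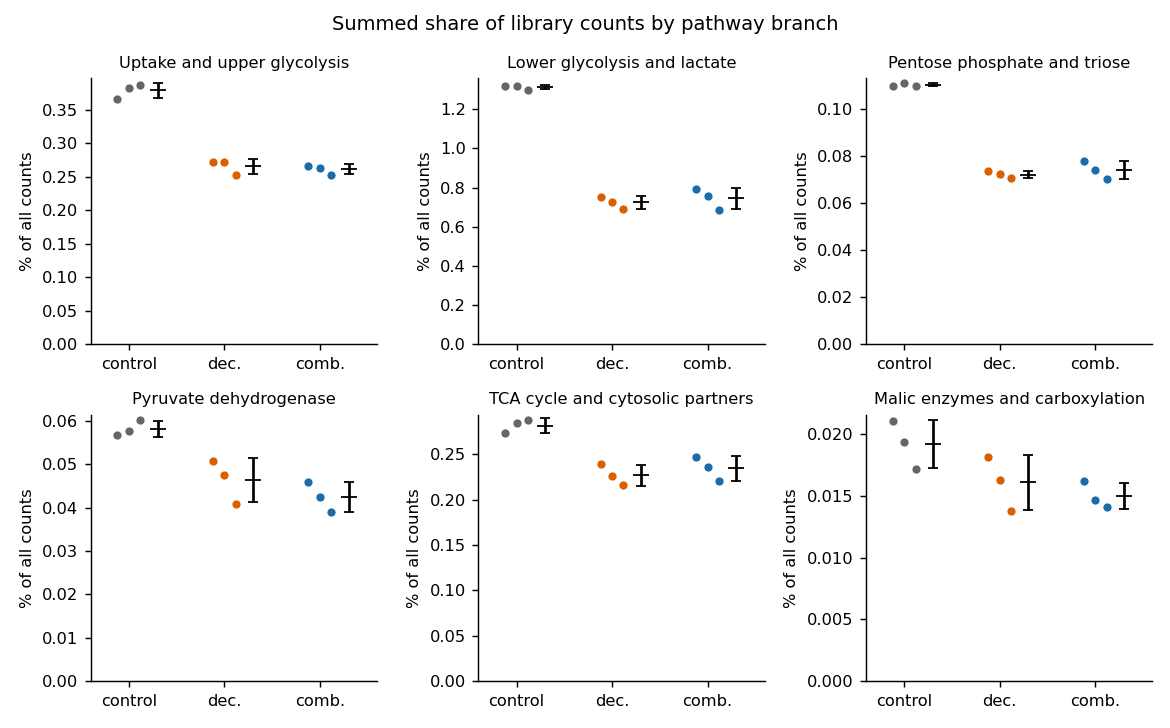
Percentage of all counts in a library (y axis, from 0) held by the genes of each of 6 pathway branches in control, decitabine (dec.) and combination (comb.) libraries. Points are single libraries, and the bar is the mean with 1 SD of 3. Lower glycolysis and lactate falls from about 1.31% to 0.724% and 0.744%, and the treated points lie below the controls in every branch except for overlaps among the malic and carboxylation genes after decitabine.

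Ratios of isoenzymes or subunits within a library do not depend on its scaling. If the expressed forms of both genes keep their lengths, a shift between groups is a shift in the balance of the pair. The forms expressed were not determined. Over 13 pairs and 39 tests, the smallest exact two-sided permutation p that 3 libraries against 3 can give was 0.1 (adjusted p = 0.156), so no pair could pass a threshold of 0.05. A pair described as moved gave that p and had treated libraries that did not overlap the controls. The balance of SUCLG2 to SUCLA2 moved from a log2 ratio of -1.10 ± 0.11 (SD, n = 3) in the controls to -1.72 ± 0.03 after decitabine and -2.42 ± 0.06 after the combination treatment. The difference between the treatments was -0.70 (95% interval -0.80 to -0.60), so the ratio was lower again when SAM was added.

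Among the sugar kinases, the log2 ratio of HK2 to HK1 moved from -1.61 ± 0.08 to -0.99 ± 0.04 after decitabine and -1.18 ± 0.02 after the combination treatment. PFKP to PFKL moved from 0.42 ± 0.10 to 1.22 ± 0.06 and 1.47 ± 0.05, while PFKM to PFKL was 0.75 ± 0.08 in the controls, 0.32 ± 0.06 after decitabine and 0.79 ± 0.10 after the combination treatment. The last value overlapped the controls and differed from them by 0.04 (95% interval -0.17 to 0.24, exact p = 0.8). ALDOC to ALDOA rose stepwise from -6.71 ± 0.22 to -5.95 ± 0.13 and -5.36 ± 0.09.

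In the mitochondrial and cytosolic pairs, IDH2 to IDH1 moved from -1.26 ± 0.12 to -0.44 ± 0.02 and -0.30 ± 0.07, toward the mitochondrial form, and MDH2 to MDH1 moved from 1.19 ± 0.10 to 0.79 ± 0.02 and 0.85 ± 0.07, toward the cytosolic form. IDH3B to IDH3A went from 0.55 ± 0.01 to 0.39 ± 0.08 and 0.25 ± 0.11. PCK2 to PC was 0.28 ± 0.22 in the controls, 0.56 ± 0.04 after decitabine and -0.30 ± 0.13 after the combination treatment, and the treatments differed by -0.87 (95% interval -1.09 to -0.64). PFKFB4 to PFKFB3 differed between the treatments by -0.43 (95% interval -0.67 to -0.19), and the controls ran from -2.21 to -1.62, over most of that range.

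For LDHB to LDHA the difference from control was -0.05 after decitabine (95% interval -0.27 to 0.17, exact p = 0.6) and -0.07 after the combination treatment (95% interval -0.26 to 0.12, exact p = 0.4). For PDK1 to PDHA1 it was 0.17 (95% interval -0.25 to 0.58) and 0.20 (95% interval -0.24 to 0.63), both with exact p = 0.4. For ME2 to ME1 it was -0.20 (95% interval -0.67 to 0.28, exact p = 0.3) and -0.38 (95% interval -0.82 to 0.07, exact p = 0.2). These intervals include 0 and leave room for shifts of the size seen in some other pairs.

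**Figure D3:**
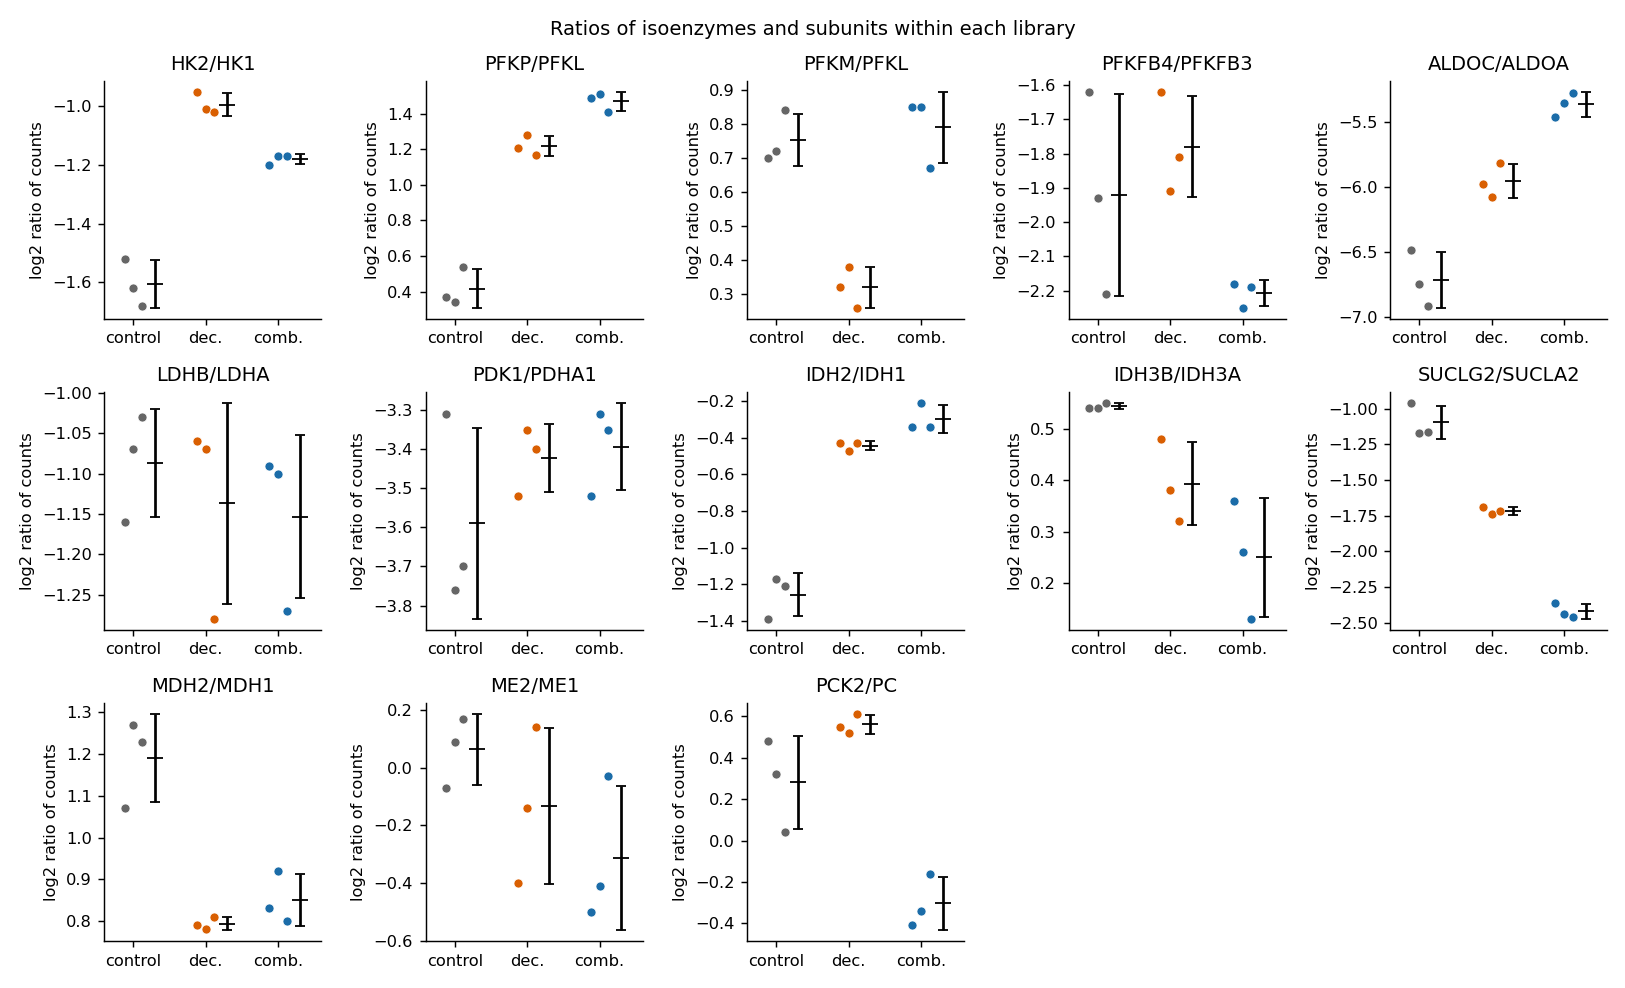
Log2 ratio of the estimated counts of 2 genes within each library (y axis) for 13 pairs of isoenzymes or subunits in control, decitabine (dec.) and combination (comb.) libraries. Points are libraries, the bar is the mean with 1 SD of 3, and each panel has its own range. The ratio of SUCLG2 to SUCLA2 steps down from -1.10 to -1.72 and -2.42, that of IDH2 to IDH1 rises from -1.26 to -0.44 and -0.30, and that of LDHB to LDHA overlaps between all groups.

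Adding SAM to decitabine was compared after decitabine alone to see which of these genes responded to the second agent. Of the 50 genes, 5 were higher, 4 were lower and 41 did not pass (edgeR), which is 18.0% called against 15.7% of all genes tested (7.67% higher and 8.02% lower) and 20.6% of genes averaging at least 10 CPM. The share was therefore near the background. At an unadjusted p under 0.05 there were 21 of the 50, beside 5836 of all 18532 genes tested and 3976 of the 10482 averaging at least 10 CPM. The per-library values of the 9 genes are given in the branches above, except as repeated here.

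ACO1 differed most, with a log2 difference of 0.90 ± 0.09 (adjusted p = 0.00029), the lowest combination library at 95 CPM and the highest decitabine library at 61.6 CPM. In the other direction H6PD had the lowest value, -0.84 ± 0.13 (adjusted p = 0.0015), with combination libraries up to 23.3 CPM and decitabine libraries from 30.3 CPM. PFKL was lower by a log2 difference of -0.43 ± 0.07 (adjusted p = 0.0024). These 3 calls held under all 17 alternatives.

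The other 6 calls were lost when some single libraries were left out, with the direction kept. ALDOC was higher by 0.50 ± 0.11 (adjusted p = 0.0092), and by 0.47 (adjusted p = 0.055) without decitabine replicate 2. IDH3A was higher by 0.27 ± 0.06 (adjusted p = 0.012), and by 0.27 without decitabine replicate 2 (adjusted p = 0.06) or combination replicate 2 (adjusted p = 0.062). SUCLG2 was lower by -0.45 ± 0.11 (adjusted p = 0.017), by -0.40 without decitabine replicate 1 (adjusted p = 0.057) and by -0.46 without combination replicate 2 (adjusted p = 0.063).

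TALDO1 was lower by -0.24 ± 0.06 (adjusted p = 0.023) and lost the call without replicate 1 or 2 of either treatment (log2 -0.25 to -0.22, adjusted p from 0.053 to 0.12). RPIA, at 26.1, 29.7 and 28.1 CPM after decitabine and 38.8, 35.9 and 30.8 CPM after the combination treatment, was higher by 0.33 ± 0.09 (adjusted p = 0.032). It lost the call without control replicate 2, without any 1 of the 3 decitabine libraries or without combination replicate 1 or 2 (log2 0.25 to 0.37, adjusted p from 0.052 to 0.13). SUCLA2 was higher by 0.25 ± 0.08 (adjusted p = 0.048) and lost the call under 12 of 17 alternatives, among them the omission of any library but combination replicate 3 (log2 0.19 to 0.28, adjusted p from 0.058 to 0.18).

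Combination replicate 3 was the lowest of its group in 38 of the 50 genes, as decitabine replicate 3 was in 35 of 50, while among genes averaging at least 10 CPM these libraries were lowest in 45.1% and 43.4%. Without combination replicate 3, 15 of the 50 genes were called higher and 5 lower than after decitabine alone. Leaving out decitabine replicate 2 gave 1 higher, and leaving out combination replicate 2 gave 2 higher and 2 lower. The number of genes called higher was 3 without control replicate 2, without decitabine replicate 1 or 3 and without combination replicate 1. The number called lower was 2 without decitabine replicate 1. The part of these libraries in the result was not tested beyond this.

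**Figure D4:**
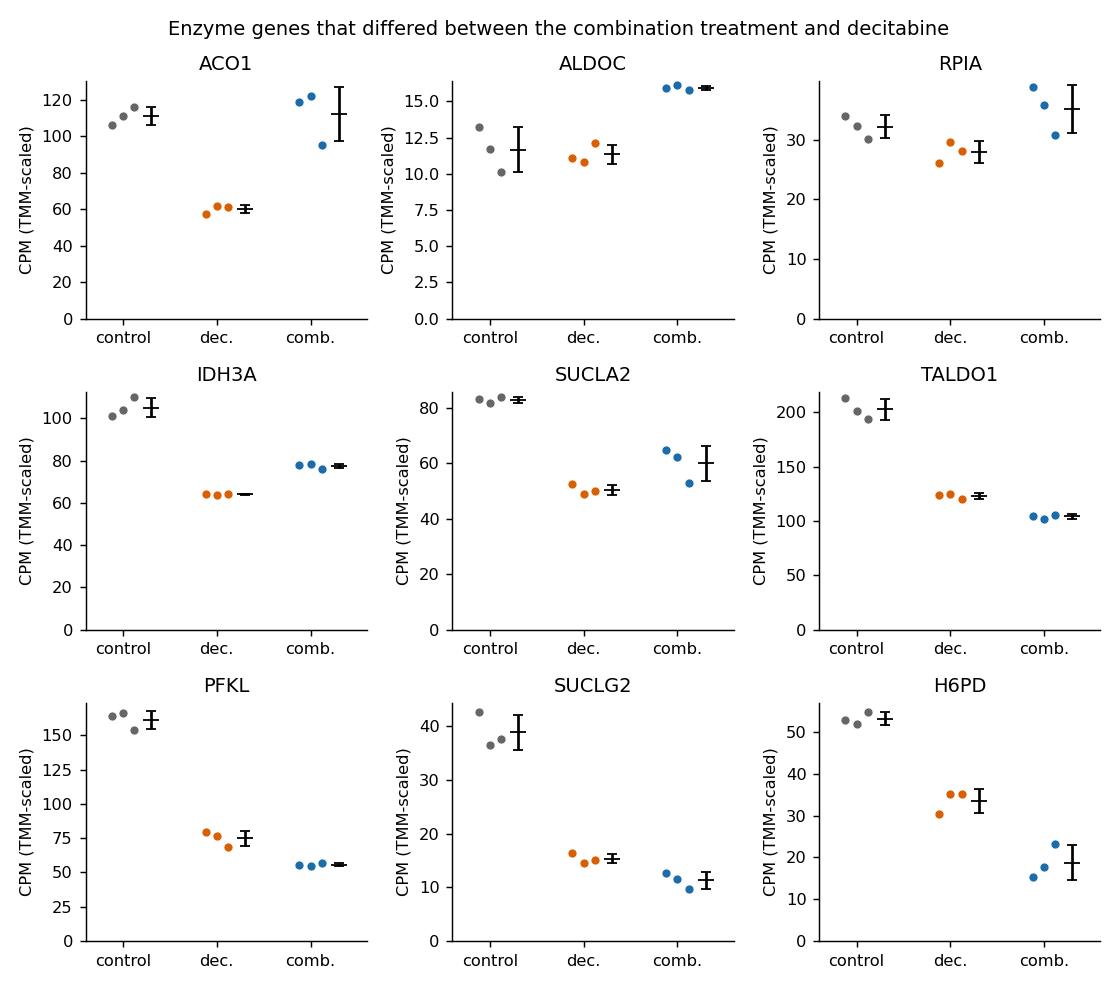
TMM-scaled CPM (y axis, from 0) of the 9 genes that were called between the combination treatment and decitabine, in control, decitabine (dec.) and combination (comb.) libraries. Points are libraries and the bar is the mean with 1 SD of 3. ACO1 stands at 57.4 to 61.6 CPM after decitabine and at 95 to 122 CPM after the combination treatment, next to 106 to 116 CPM in the controls.

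Other genes of the same pathways, listed by name and not among the 50, were counted in the same way. Of 44 such genes, 33 had enough counts to be tested. With decitabine 18 rose, 8 fell and 7 did not pass (median log2 fold change 0.35), and after the combination treatment 16 rose, 7 fell and 10 did not pass (median 0.18). The background was again 36.3% and 35.9% higher among all genes. With library-size scaling 4 in place of 8 were lower after decitabine. Rises of at least 1 on the log2 scale were called for 11 and 8 genes, against 22.7% and 21.4% of all genes tested, and falls as large for 2 and 1. Of these rises, TKTL1, TKTL2, PGAM2 and LDHAL6A had 0 to 3 counts over all controls, and SLC2A4 had 16. These genes passed the filter on counts through the treated groups, so that they could be called only as rises. Nothing is read from the tally. The 11 genes too low to be tested were HK3, GAPDHS, PGAM4, PKLR, LDHC, LDHAL6B, SLC2A2, SLC2A3, FBP2, PDHA2 and PCK1.

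The transketolase family shows the widest contrast. TKTL1, a transketolase-like gene on the X chromosome, had 3 counts in all control libraries together. It was at 225, 243 and 224 CPM after decitabine and at 230, 251 and 239 CPM after the combination treatment. The ratio to control was 4641 after decitabine (95% counting interval 1588 to 22508) and 4829 after the combination treatment (1652 to 23419). TKT fell over the same libraries. TKTL2 had no counts in the controls and lay between 0.295 and 0.748 CPM in the treated libraries, at least 9.93-fold higher after decitabine and at least 13.7-fold higher after the combination treatment against a floor of 3 counts over the control group.

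Among the kinases that set fructose 2,6-bisphosphate, PFKFB2 rose from 56.4, 51.7 and 58.4 CPM to 196, 211 and 245 CPM after decitabine and to 244, 271 and 311 CPM after the combination treatment (log2 1.97 ± 0.10 and 2.31 ± 0.10, adjusted p = 1.4e-09 and 3.4e-10). PFKFB2 is known as the heart form, and its libraries did not overlap the controls, whereas PFKFB3 and PFKFB4 did not pass. Among the hexokinases, HKDC1 rose from 5.26, 7.45 and 8.74 CPM to 22.3, 30.9 and 32.9 CPM and to 14.7, 17.3 and 24 CPM (log2 2.0 and 1.38, adjusted p = 4.8e-05 and 0.00067).

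The regulators of pyruvate dehydrogenase changed in both directions. PDK4, the kinase induced in fasting, rose from 5.91, 5.75 and 7.26 CPM to 27.2, 30.8 and 27.1 CPM after decitabine and to 39.8, 40.7 and 34.6 CPM after the combination treatment (log2 2.17 ± 0.11 and 2.6 ± 0.11, adjusted p = 1.3e-09 and 2.2e-10). PDK3 fell from 28.5, 28.6 and 28.6 CPM to 9.60, 7.63 and 8.81 CPM and to 13.8, 13.5 and 11.9 CPM (log2 -1.72 ± 0.10 and -1.13 ± 0.10, adjusted p = 5.9e-09 and 2.5e-07). Among the phosphatases that reactivate the complex, PDP1 rose from 34.6, 35.0 and 38.4 CPM to 80.3, 87.4 and 96.6 CPM and to 53.8, 64.3 and 84.7 CPM (log2 1.29 and 0.91, adjusted p = 8.8e-06 and 0.00015). The other such phosphatase, PDP2, fell from 45.4, 44.6 and 48.6 CPM to 34.1, 31.7 and 30.2 CPM and to 31.6, 31.6 and 34.4 CPM (log2 -0.53 and -0.51, adjusted p = 3.3e-05 and 5.4e-05). The kinase PDK2 fell as PDK3 did, from 52.0, 56.4 and 51.0 CPM to 25.5, 30.2 and 27.7 CPM and to 32.4, 33.2 and 30.4 CPM (log2 -0.93 and -0.73, adjusted p = 2.3e-07 and 2.6e-06). The treated libraries of PDK4, PDK3, PDK2, PDP1 and PDP2 did not overlap the controls.

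Further genes changed by at least 1 on the log2 scale after decitabine. The mitochondrial malic enzyme ME3 rose (log2 1.10 and 0.83, adjusted p = 3.6e-06 and 5.8e-05), and the monocarboxylate carrier SLC16A7 fell (-1.03 and -0.89, adjusted p = 3.7e-06 and 1.5e-05). The glucose transporter SLC2A12 rose after decitabine from 2.23, 1.40 and 1.58 CPM to 5.79, 6.07 and 5.08 CPM (log2 1.70, adjusted p = 5.3e-06) and was at 1.87, 2.24 and 2.64 CPM after the combination treatment, which overlapped the controls. SLC2A4, the insulin-responsive transporter, rose at very low levels, from at most 0.45 CPM in the controls to at most 1.23 CPM (log2 1.89 and 1.97). It had 16 counts over all controls and passed the filter on counts through the treated groups, so no p-value is read for it. PGAM2, the muscle mutase, had no counts in the controls and was at least 19.0-fold and 16.3-fold higher with the treatments against the same floor. LDHAL6A, a lactate dehydrogenase-like gene, had 3 counts in the controls and a ratio of 15.6 (95% counting interval 5.07 to 78.0) and 19.5 (6.39 to 96.9).

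Between the treatments, 6 of these 33 genes passed, 4 higher and 2 lower after the combination treatment, a share near the 15.7% of all genes tested and the 20.6% of genes averaging at least 10 CPM that passed. SLC2A12 had a log2 difference of -1.32 ± 0.20 (adjusted p = 0.0014), PDK3 of 0.59 ± 0.11 (adjusted p = 0.0038) and the neuronal enolase ENO2 of -0.50 ± 0.10 (adjusted p = 0.005). These 3 passed under all 17 alternatives. PDK4 (0.44, adjusted p = 0.011) lost the call without combination replicate 2 (adjusted p = 0.067). PFKFB2 (0.34, adjusted p = 0.032) lost it without decitabine replicate 1 or 2 and without combination replicate 2 or 3 (adjusted p from 0.074 to 0.12), and also with library-size scaling. The pyruvate carrier subunit MPC2 (0.26, adjusted p = 0.023) lost it without replicate 1 or 2 of either treatment (adjusted p from 0.066 to 0.11). Leaving out combination replicate 2 gave 1 higher gene, and leaving out decitabine replicate 1 or 2 gave 2, while 5 genes were lower without combination replicate 3.

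**Figure D5:**
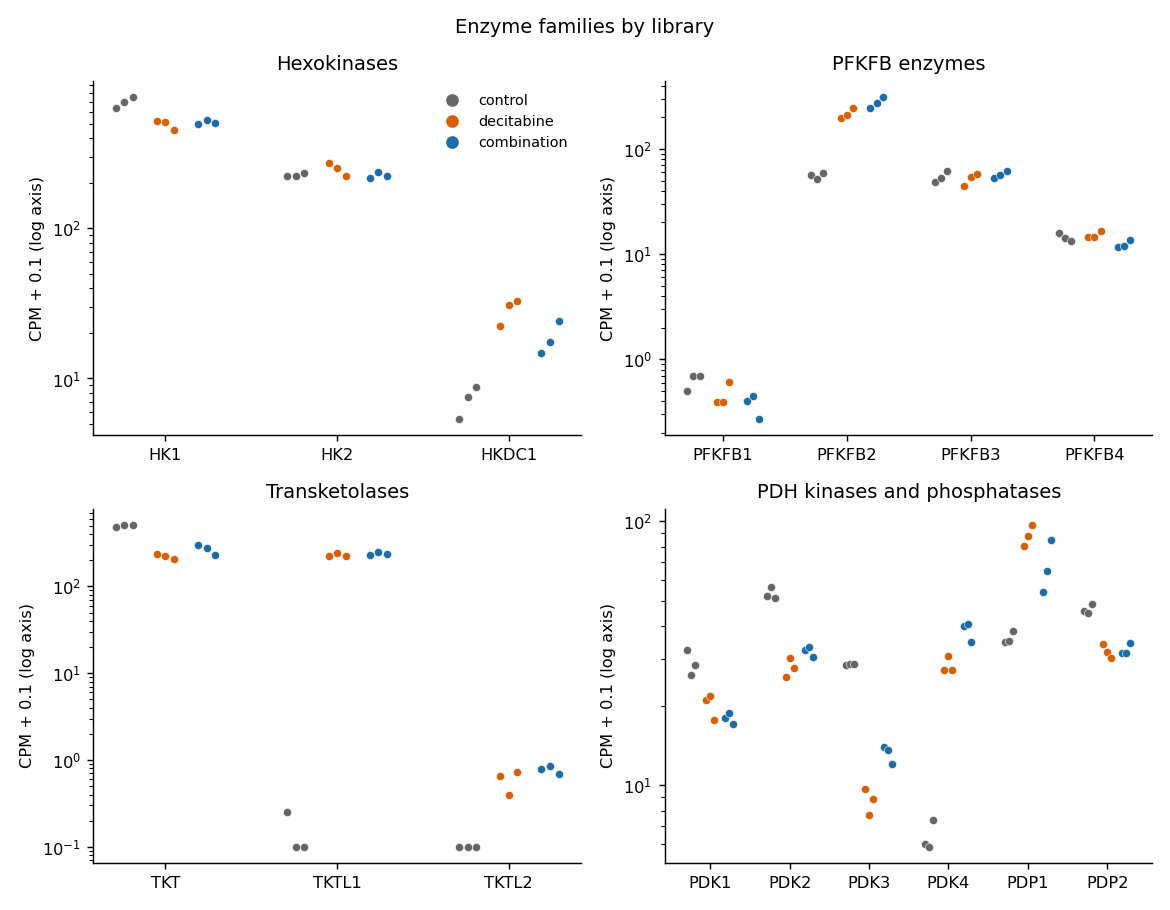
TMM-scaled CPM plus 0.1 (y axis, logarithmic) of hexokinases, PFKFB enzymes, transketolases and the kinases and phosphatases of pyruvate dehydrogenase in each library. Points are control (gray), decitabine (orange) and combination (blue) libraries. TKTL1 rises from near the bottom of the axis to between 224 and 251 CPM while TKT falls, and PDK4 rises while PDK3 falls.

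Several of these genes have processed pseudogenes that could take up their reads. Of the 50, 23 have pseudogenes that carry their name, 129 in all, and these held between 0% and 1.3% of the summed counts of gene and pseudogenes in any group. Adding the pseudogene counts to the gene moved a log2 fold change by 0.02 at most.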

How the data were processed

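RNA-seq of 9 PC-3 libraries, 3 a group, was analysed, grouped and numbered as in the labels, while the doses stand in the study's methods. According to the submitters' processing notes, reads were trimmed with Trim Galore 0.6.4 and quantified with kallisto 0.4.6, and the study's methods name GRCh38 as the genome. The annotation release is not given in the sources used here. The authors deposited estimated counts per Ensembl gene, not normalized, in which kallisto shares reads that match several transcripts, so values of related or overlapping genes are less certain. The log2 CPM values that the authors deposited beside them were not used. Cells given SAM without decitabine are not analysed here.

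Of 60617 identifiers, 60357 were matched to symbols of GENCODE release 44. Counts were rounded to whole numbers and filtered with edgeR's filterByExpr, which left 18532 genes, and tested with the quasi-likelihood test of edgeR 4.0.16 (R 4.3.3), TMM scaling and robust dispersions, over all 9 libraries with 1 mean per group. Adjusted p-values are Benjamini-Hochberg values over all genes tested, with a threshold of 0.05. Shares and log2 ratios were compared by exact two-sided permutation tests, and 95% intervals use the pooled spread of both groups. Library totals of 21934307 to 22489684 counts set the depth. Ratios with 1 to 3 control counts carry a 95% interval and bounds use a floor of 3 counts, both covering counting error only. No pair of libraries was a copy (chi-square per degree of freedom 6.43 to 26.6). The alternatives were DESeq2 1.42.0 and its size factors, library size alone, voom and limma 3.58.1, other filters, only the 6 libraries compared, a replicate block, a log2 fold change of at least 1 and leaving out each library. Adding pseudogene counts was chosen after seeing the data. The procedure was tested on simulated data with 200 genes changed per treated group, far fewer than were called here. Scaling under so broad a change was therefore not tested. Some listed genes are not reported here.

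The genes, branches, pairs and other pathway genes were chosen with earlier results of these data known. Values in every library are given for those of the 50 genes called with an absolute log2 fold change of at least 1 with either treatment, for genes called between the treatments and for the largest change in each direction in a branch. Other pathway genes are named where they changed by at least 1. Those named for the comparison of the treatments, PDK2 and PDP2 were added after their values were seen, as TKT and TKTL1 were to the printed windows.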

Additional observations from a re-analysis of the deposited data

How the results depend on the processing

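Of 90 single changes of the 50 genes recomputed under 17 alternatives, 13 lost, gained or turned a call under at least 1. The 90 were the changes called in the main fit, and that of ACO1 with the combination treatment. Calls gained by other changes that did not pass are therefore not among the 13 and enter only the counts below. Turned signs were RPE with the combination treatment with library size alone (0.03), and ACO1 with the combination treatment, not called, without a filter (-0.02), without control replicate 1 (-0.03) and without combination replicate 1 or 2 (-0.05 each), within a range of -0.05 to 0.12 over the libraries left out. Genes of the 50 called higher with decitabine numbered 1, but 4 with library size alone, 1 to 2 with a library left out and 0 at a log2 fold change of at least 1. Those called lower numbered 39, and 13 at a fold change of at least 1. With the combination treatment, 2 were higher, but 7 with library size alone, 1 to 2 with a library left out and 0 at a fold change of at least 1, and 38 were lower, with 11 at that size.

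Between the treatments 5 were higher, but 8 with DESeq2, 10 without a filter, 3 with only the 6 libraries compared, 1 to 15 with a library left out and 0 at a fold change of at least 1, and 4 were lower, with 2 to 6 when a library was left out and 0 at a fold change of at least 1. Of the other pathway genes, 8 were lower with decitabine, but 4 with library size alone. Between the treatments 4 of them were higher, with 1 to 4 when a library was left out, and 2 were lower, but 4 with DESeq2, 5 without a filter and 2 to 5 with a library left out. Without a filter more genes were tested, and with 6 libraries fewer libraries entered. The cause of the other shifts was not tested.

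With the replicate number as a block, 9 of the 50 were higher and 6 lower between the treatments, 5 of the other genes were lower, and no other count moved by over 1.5 times. Same-numbered control and decitabine libraries had correlations of their deviations from the group means of -0.0165 to 0.0182, and control and combination libraries of -0.0039 to 0.0694. In comparisons with the controls, not every library correlated best with its own number. Same-numbered decitabine and combination libraries had 0.233, 0.0359 and 0.229, each the highest for its library between these groups. Decitabine replicate 1 with combination replicate 3, and decitabine replicate 3 with combination replicate 1, had -0.22 each. Whether the numbers mark shared handling of the treated groups was not tested.

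With a library left out, differences in shares between the treatments ran from -0.00235 to 0.05 percentage points for lower glycolysis and from -0.0162 to 0.0651 for the 50 genes. Log2 ratio differences ran from -0.01 to 0.29 for PFKFB4 to PFKFB3 and from -0.09 to 0.02 for LDHB to LDHA with decitabine, and between the treatments from -0.09 to 0.04 for LDHB to LDHA and from -0.02 to 0.09 for PDK1 to PDHA1. No other share or ratio turned its sign, but over the libraries left out ME2 to ME1 ran from -0.33 to -0.06 with decitabine and from -0.32 to -0.04 between the treatments, PDK1 to PDHA1 from 0.08 to 0.31 and from 0.11 to 0.34 with decitabine and the combination treatment, PFKFB4 to PFKFB3 from -0.43 to -0.14 with the combination treatment, PCK2 to PC from 0.17 to 0.38 with decitabine, LDHB to LDHA from -0.10 to -0.01 and PFKM to PFKL from 0.01 to 0.10 with the combination treatment, and IDH3B to IDH3A from -0.19 to -0.08 and MDH2 to MDH1 from 0.02 to 0.09 between the treatments. With 3 libraries a group, exact tests could not pass 0.05 at any depth.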
